A study of Homo sapiens with 10 samples.

Results

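Histone genes that are switched on during DNA replication were followed through a sequencing experiment on cells labelled HEK293, a line derived from human embryonic kidney. The study's methods give the cells, into which the LALA construct was placed, under the name of a derivative of this line. The loci were chosen by name: every assembled locus that carried a symbol beginning with HIST1H, HIST2H, HIST3H or HIST4H was taken, which gave 75 of 30809 loci and 72 symbols. Polyadenylated RNA had been sequenced from 5 groups of 2 libraries. In the siPAP groups, siRNAs against the canonical poly(A) polymerases PAPα (gene PAPOLA) and PAPγ (gene PAPOLG) were applied for 3 days, and total RNA and a detergent-insoluble nuclear fraction were collected. In the LALA group, a myc-tagged copy of PABPN1, which binds poly(A) tails in the nucleus, with the changes L119A and L136A was expressed from a tetracycline-responsive promoter integrated in a stable line, doxycycline having been removed 3 days before harvest, and the nuclear fraction was collected. Control total and control nuclear RNA were the references. LALA acts as a dominant negative that inhibits hyperadenylation. Nuclear RNA that dissolves in the detergent was not part of the nuclear samples. The sources describe the LALA control both as cells given a control siRNA and as the parental line, so effects of LALA, of its line and of the control treatment cannot be told apart. The siPAP and LALA nuclear samples were set against the same control nuclear libraries.

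Replication-dependent histone genes encode the linker histone H1 and the core histones H2A, H2B, H3 and H4, and most of them stand in clusters. Their mRNAs are the only animal mRNAs known to end without a poly(A) tail. The pre-mRNA is cut just after a short stem-loop that is bound by the stem-loop binding protein SLBP, with the U7 snRNP and the endonuclease CPSF3 (CPSF73). A few of these genes also give a polyadenylated mRNA from a signal further downstream. Because the libraries were made from polyadenylated RNA, the values below are levels of tailed RNA, or of RNA carried along with it, and not of the stem-loop-ended mRNA that makes up most histone message in dividing cells.

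The 3′ ends of the genes were read from the GRCh37 (hg19) sequence. Of the 72 symbols, 65 could be matched to an annotated gene at the position of the locus, 62 of them protein-coding. A histone stem-loop, 6 paired bases around a 4-base loop, lay within 200 bases of an annotated transcript end in 60 of the 62 coding genes (96.8%), compared with 9 of 20091 other protein-coding genes (0.0448%). Both exceptions, HIST2H2AA3 and HIST2H2BE, have the pattern elsewhere in the gene. There were 10 distinct hairpins, and the commonest occurred in 35 symbols of the H1, H2A, H2B and H3 classes, HIST1H1C among them. The hairpins of 6 loci that the results turn on are printed with 5 bases on each side and the arms of the stem in capitals, as DNA of the gene's own strand.
HIST3H2A (H2A, chr1:228645070-228645085, minus strand): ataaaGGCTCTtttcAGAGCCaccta
HIST1H2AC (H2A, chr6:26124897-26124912, plus strand): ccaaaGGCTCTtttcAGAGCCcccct
HIST1H2BK (H2B, chr6:27114145-27114160, minus strand): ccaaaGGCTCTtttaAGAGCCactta
HIST1H4H (H4, chr6:26285359-26285374, minus strand): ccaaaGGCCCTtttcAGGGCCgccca
HIST1H2AK (H2A, chr6:27805663-27805678, minus strand): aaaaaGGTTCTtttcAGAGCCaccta
HIST2H2BC (annotated as a pseudogene, chr1:149821869-149821884, minus strand): ccaaaGGCTCTtttcAGGGCCattta
HIST3H2A and HIST1H2AC carry the commonest hairpin. HIST1H2BK has a form found in 9 symbols, and HIST1H4H has the form found in 9 H4 genes. The form of HIST1H2AK occurred in 1 symbol and that of HIST2H2BC in 2, the other being HIST1H2AG.

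The hexamer AATAAA, the commonest polyadenylation signal, was searched on the gene's strand only. It occurred within 1000 bases after the hairpin in 28 of 62 histone symbols (45.2%), and within 1000 bases after the annotated end in 40.9% of other coding genes. The window for other genes begins after their last annotated end and leaves out any signal ahead of it. The 40.9% is thus a share for downstream sequence and not the share of other genes that carry the signal. It lay within 100 bases in 2 symbols, HIST1H1C and HIST1H2BD, which were chosen after the search and in which it began at base 13 after the hairpin. The second arm of the stem and the hexamer are in capitals.
HIST1H1C (H1, chr6:26055954-26055977, minus strand): AGAGCCaccactgatctcAATAAA
HIST1H2BD (H2B, chr6:26158825-26158848, plus strand): AGAGCCacgcatgttttcAATAAA
Such a match is a description of the sequence and not evidence of a used site.

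The deposited values are mean FPKM over the 2 libraries of a group, that is, fragments of a locus scaled to its exon length and to the mapped fragments of the library. With no values of single libraries there is no SD, no n and no test in what follows, and depth is unknown, so differences are given as sizes and are set beside all loci of the same comparison. PAPOLA was at 11.0 FPKM in siPAP total RNA and 79.3 in control total RNA, and at 11.2 and 56.0 FPKM in siPAP and LALA nuclear RNA against 61.7 in control nuclear RNA. PAPOLG was at 3.64 FPKM in siPAP total RNA and 12.2 in control total RNA. The locus that holds PABPN1 together with BCL2L2 was at 162 FPKM in LALA nuclear RNA and 89.1 in control nuclear RNA. Of the HEK293 markers, VIM ranged between 230 and 352 FPKM over the groups and NEFL between 9.25 and 19.3, while PAX2 stayed at or below 0.17. LHX1 reached 2.30 at most, EYA1 1.08 and NEFM 0.477. Of the markers of other cell types, HBB and KRT5 were listed at 0 in every group, and COL1A1 reached 1.94. EYA1, NEFM and PAX2 stayed below COL1A1.

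Most histone loci were low in polyadenylated RNA. Of the 75 loci, 32 reached 1 FPKM in at least 1 group, 9 reached 5 FPKM, 20 stayed between 0 and 1, and 23 were listed at 0 in all 5 groups. The loci that just reached 1 FPKM were HIST1H4K at 1.01, HIST1H1B at 1.00 and HIST1H3A at 1.00, and those that just missed it were HIST2H2AC at 0.903 and HIST1H4J at 0.752. The median histone locus lay between 0.118 FPKM in control nuclear RNA and 0.488 in LALA nuclear RNA. Among the classes, 7 of 16 H2A loci, 9 of 20 H2B loci, 4 of 13 H3 loci, 7 of 16 H4 loci and 2 of 6 H1 loci reached 1 FPKM. The other 4 loci carry symbols of more than 1 class, and 3 of them reached it.

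The level went with the length of the assembled locus. The loci were assembled from these same reads with the annotation as a guide, and a locus without reads could not be extended. Length and level were therefore not independent, and the counts below are a description only. Of 38 loci longer than 1000 bases, 26 reached 1 FPKM and 1 was listed at 0 throughout. Of 37 loci up to 1000 bases, which are close to the size of the annotated intronless gene, 6 reached 1 FPKM and 22 were listed at 0. The short group holds the pairs that cannot be told apart by sequence: HIST2H4A and HIST2H4B, HIST2H3A and HIST2H3C, and the 2 loci named HIST2H2AA3 each shared 100% of their 100-base windows with a copy, and all were listed at 0. Several long loci share an interval, since 21 loci fall on 9 intervals. On chr6:27100778-27114637, HIST1H2AG, HIST1H4I and HIST1H2BK were assembled separately with different levels, and a locus name therefore does not always stand for the histone mRNA alone. The strand of the assembled loci was not read. The contribution of neighbouring, extended or opposite-strand transcripts to these values was not tested.

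**Figure D1:**
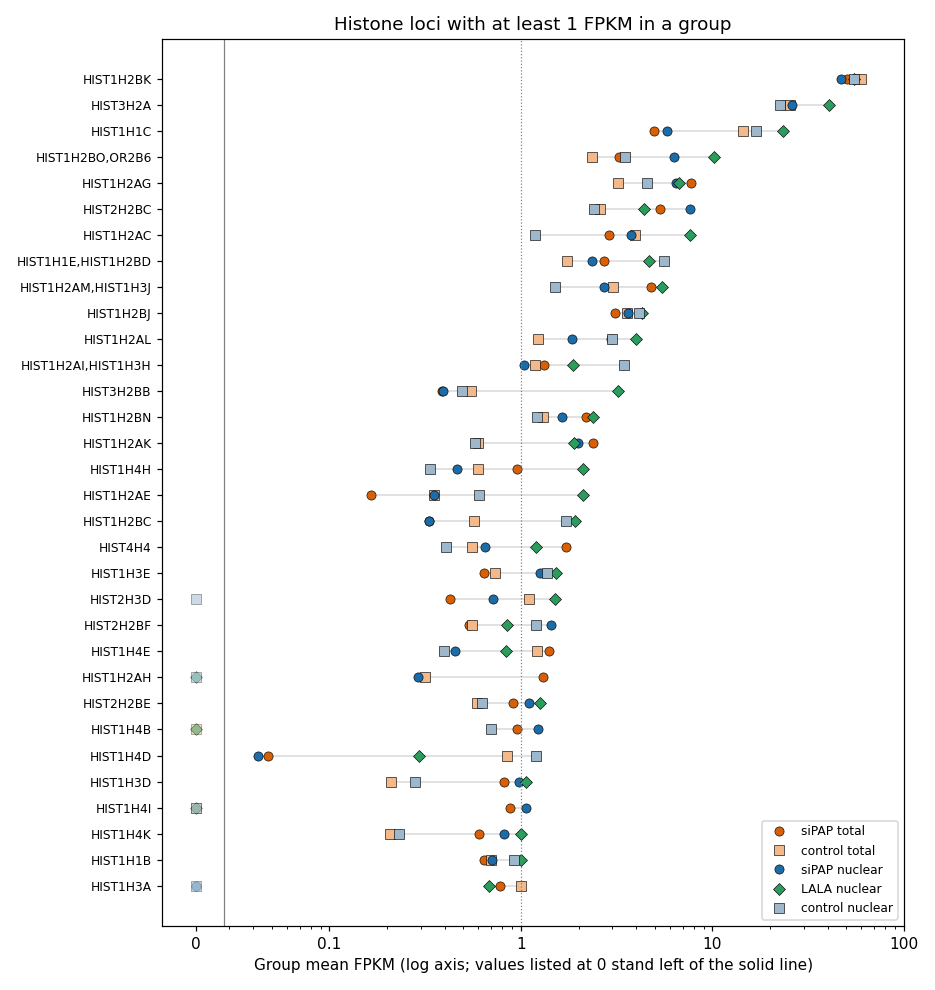
Mean FPKM of the 32 histone loci that reached 1 FPKM in a group, on a log axis, with 1 symbol per group and values listed at 0 left of the solid line. HIST1H2BK and HIST3H2A stand above 20 FPKM in every group, and most other loci lie between 0.2 and 10 FPKM.

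A few loci held most of the signal. HIST1H2BK, a core histone H2B gene (now H2BC12), was at 50.6 FPKM in siPAP total, 59.5 in control total, 47.1 in siPAP nuclear, 54.8 in LALA nuclear and 55.0 in control nuclear RNA, so the groups lay within 1.18-fold of their controls. HIST3H2A, an H2A gene (now H2AC25), was at 23.2 FPKM in siPAP total and 25.3 in control total RNA. In the nuclear fraction it was at 26.2 FPKM in siPAP and 40.6 in LALA, against 22.6 in control. LALA nuclear RNA thus stood 1.80-fold above its control at this locus, while both siPAP samples stayed within 1.16-fold. Together the 2 loci made up between 47.4% of the summed histone FPKM in LALA nuclear RNA and 61.6% in control total RNA. Summed over all 75 loci, the level was 135 FPKM in siPAP total and 138 in control total RNA, and 136 in siPAP and 201 in LALA nuclear RNA against 140 in control nuclear RNA. Without these 2 loci the sum was 106 FPKM in LALA nuclear RNA and 62.2 in control nuclear RNA, a ratio of 1.70.

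The linker histone gene HIST1H1C (H1.2, now H1-2) was the histone locus with the largest drop in FPKM after PAP depletion. It was at 4.93 FPKM in siPAP total RNA and 14.5 in control total RNA, and at 5.77 FPKM in siPAP nuclear RNA and 17.0 in control nuclear RNA. The ratio was 2.94-fold lower in total RNA and 2.95-fold lower in nuclear RNA (log2 -1.56 in each). In LALA nuclear RNA it was at 23.4 FPKM, 1.38-fold above control nuclear RNA and 4.06-fold above siPAP nuclear RNA. This locus is 732 bases long and ends with its annotated gene, and it is a locus with AATAAA close behind the hairpin (printed above). Summed over the 6 loci with H1 symbols alone, the level was 7.37 FPKM in siPAP and 25.4 in LALA nuclear RNA, against 18.3 in control nuclear RNA. HIST1H1C made up most of each sum. The other H1 locus that reached 1 FPKM, 1 of 2 named HIST1H1B (H1.5) on the same interval, lay between 0.645 and 1.00 FPKM in all groups. Which of the 2 lies on the strand of the gene was not read.

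**Figure D2:**
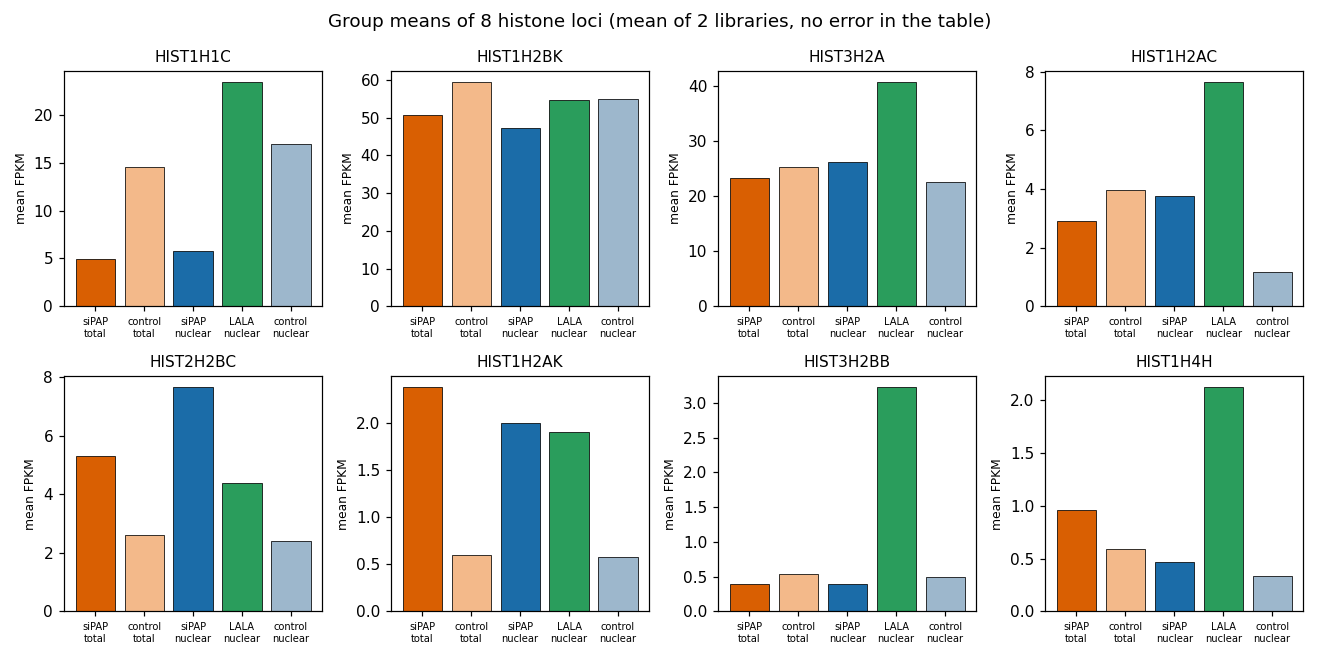
Mean FPKM of 8 histone loci in the 5 groups, as bars that start at 0, each the mean of 2 libraries with no error available. HIST1H1C is low in both siPAP groups (4.93 and 5.77 FPKM), HIST1H2BK is alike in all groups, and HIST1H2AC and HIST3H2BB are highest in LALA nuclear RNA (7.65 and 3.22 FPKM).

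The first question of the design was what PAP depletion does to the steady-state level of polyadenylated RNA. A locus was counted as measured if 1 of the compared groups reached 1 FPKM and neither was at 0, and as higher or lower from a 2-fold ratio. In total RNA, 19 histone loci were measured, and 6 of them (31.6%) were at least 2-fold higher in siPAP than in control, beside 5.41% of all 13318 measured loci. At least 2-fold lower were 2 (11%), beside 1.55% of all loci. Of the 6, 3 were below 1 FPKM in control and were measured through siPAP alone, and the other 3 were among 14 histone loci with at least 1 FPKM in both groups, where 2.48% of all loci were higher. The median log2 ratio was 0.47 for the histone loci and -0.06 for all loci. It was -0.12 for the 5 histone loci with at least 5 FPKM, so its direction depended on the filter. Low loci pass a fold threshold more often, and among loci between 1 and 5 FPKM 4 of 14 histone loci (28.6%) were higher, beside 14.9% of all loci at that level.

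Of the 6 loci, 4 were H2A genes. HIST1H2AK was at 2.38 FPKM in siPAP total and 0.600 in control total RNA. HIST1H2AG was at 7.70 FPKM in siPAP total RNA and 3.21 in control total RNA. HIST1H2AL was at 2.95 FPKM in siPAP and 1.23 in control. These ratios were 3.96-fold, 2.40-fold and 2.40-fold. HIST1H2AH was at 1.31 FPKM in siPAP and 0.316 in control total RNA, and it was listed at 0 in LALA and control nuclear RNA. HIST2H2BC was at 5.31 FPKM in siPAP total RNA and 2.60 in control total RNA. HIST4H4, an H4 gene that stands alone on chromosome 12, was at 1.72 FPKM in siPAP total and 0.558 in control total RNA. The 2 loci that were lower were HIST1H1C and the H3 gene HIST2H3D, which had 0.424 FPKM in siPAP and 1.10 in control.

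In nuclear RNA, the balance of PAP depletion was different. Of 20 measured histone loci, 3 (15%) were at least 2-fold higher in siPAP, beside 6.82% of all 13636 measured loci, and 5 (25.0%) were at least 2-fold lower, beside 2.02%. Of the 3, 1 was below 1 FPKM in control, and of the 5, 2 were below it in siPAP, so these were measured through 1 group alone. The median log2 ratio was 0.24, against -0.09 over all loci. Among loci between 1 and 5 FPKM, 3 of 13 histone loci (23.1%) were lower, beside 4.81% of all loci at that level, and 2 of 13 (15.4%) were higher, beside 17.2%. The 3 higher loci were HIST1H2AC, HIST1H2AK and HIST2H2BC. HIST1H2AK was at 1.99 FPKM in siPAP nuclear RNA and 0.574 in control nuclear RNA, a ratio of 3.47. HIST2H2BC was at 7.66 FPKM in siPAP nuclear RNA and 2.42 in control nuclear RNA, a ratio of 3.17. These 2 loci were thus past the threshold in both RNA fractions, whose controls were separate libraries. HIST1H2AK was below 1 FPKM in each control, and how many of all loci pass in both fractions was not counted.

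The 5 loci that were lower in siPAP nuclear RNA were HIST1H1C and 4 further loci. The locus named HIST1H1E,HIST1H2BD, which spans a linker and an H2B gene, was at 2.35 FPKM in siPAP nuclear RNA and 5.57 in control nuclear RNA. HIST1H2AI,HIST1H3H was at 1.04 FPKM in siPAP and 3.46 in control. HIST1H2BC was at 0.332 FPKM in siPAP and 1.72 in control. HIST1H4D was at 0.0422 FPKM in siPAP nuclear RNA and 1.20 in control nuclear RNA, and its siPAP value is too near 0 for the size of the ratio to be read. HIST1H4D was also low in siPAP total RNA, with 0.0476 FPKM against 0.848 in control total RNA. Of the 5, 4 lie in the block of chromosome 6 between bases 25726291 and 26285801. There 4 of 7 measured loci were lower, beside 2.02% of all loci, and 1 was higher, beside 6.82%. Of these 4, HIST1H2BC and HIST1H4D were measured through control alone. In siPAP total RNA 1 of 5 loci of this block was lower, beside 1.55%, and 0 higher, beside 5.41%. In LALA nuclear RNA 4 of 9 were higher, beside 7.73%, and 1 lower, beside 0.627%. In the block between bases 27062772 and 27930005, 1 of 9 was lower and 1 was higher in siPAP nuclear RNA. An effect of position was not tested.

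The 2 siPAP comparisons could be set side by side at 14 loci measured in both. The sign was the same at 9 of them, 6 higher and 3 lower in siPAP. The share of all loci with the same sign was not computed, so 9 of 14 cannot be read as high or low agreement. HIST1H2BK, HIST1H2BJ and HIST1H1C were lower in both, and for HIST1H2BK and HIST1H2BJ the change stayed within 1.18-fold. At 5 loci the sign differed. HIST1H2AC, an H2A gene (now H2AC6), was at 2.90 FPKM in siPAP total and 3.97 in control total RNA, but at 3.77 FPKM in siPAP nuclear and 1.18 in control nuclear RNA. HIST1H1E,HIST1H2BD showed the reverse, with 2.72 FPKM in siPAP total and 1.74 in control total RNA. HIST1H2AL was 2.40-fold higher in siPAP total RNA, while in the nuclear fraction it was at 1.85 FPKM in siPAP and 3.0 in control. These differences between fractions were not tested.

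The next question was what the dominant negative LALA did to nuclear RNA. At least 2-fold higher were 10 of 26 measured histone loci (38.5%), beside 7.73% of all 13880 measured loci. Of the 10, 7 reached 1 FPKM in LALA only and were below it in control, so that they had to differ in order to be measured. The other 3, HIST1H2AC, HIST1H2BO,OR2B6 and HIST1H2AM,HIST1H3J, were among 15 histone loci with at least 1 FPKM in both groups. Among all loci with at least 1 FPKM in both groups, 2.77% were higher. Control nuclear RNA was itself below control total RNA at HIST1H2AC (3.36-fold) and HIST1H2AM,HIST1H3J (2.01-fold). At HIST1H2BO,OR2B6 it was 1.49-fold above control total RNA. The part that a low control nuclear value has in the LALA ratios was not tested. With a pseudocount of 1 FPKM 5 of the 26 were higher, beside 435 of all 13880 loci. A single locus (3.85%) was at least 2-fold lower, beside 0.627% of all loci. The median log2 ratio was 0.85 for the histone loci and -0.16 for all loci. Relative to that shift of all loci, the histone median was 1.01 and 14 of the 26 loci were higher, beside 1244 of all 13880 loci. Among loci between 1 and 5 FPKM, 7 of 18 histone loci (38.9%) were higher, beside 21.4% of all loci at that level, and from 5 FPKM it was 3 of 8 (37.5%), beside 2.31%. Cuffdiff had marked all 26 loci as having enough fragments.

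By class, 3 of 6 measured H2A loci were higher, 2 of 9 H2B loci, 1 of 2 H3 loci and 3 of 4 H4 loci, beside 7.73% of all loci. The remaining locus carries an H2A and an H3 symbol. Classes follow the symbol alone. HIST1H3D and HIST1H4K, counted here, each name more than 1 locus on the same interval, and the strand of a locus was not read. Whether the counted loci hold RNA of the histone gene's own strand was not tested. The H3 locus and the H4 loci that were higher lay below 1 FPKM in control nuclear RNA, so they were measured through LALA alone. The same holds for the H2A loci HIST1H2AE and HIST1H2AK and the H2B locus HIST3H2BB. The 3 higher loci with at least 1 FPKM in both groups carry an H2A symbol, an H2B symbol, or H2A and H3 symbols. HIST1H2AC was at 7.65 FPKM in LALA nuclear RNA and 1.18 in control nuclear RNA, a ratio of 6.48. HIST3H2BB, an H2B gene (now H2BC26), was at 3.22 FPKM in LALA nuclear RNA and 0.490 in control nuclear RNA, a ratio of 6.58. It was at 0.392 FPKM in siPAP nuclear RNA and 0.388 in siPAP total RNA, so LALA was the only group in which this locus passed 1 FPKM. HIST3H2BB shares its interval with HIST3H2A, which was 1.80-fold higher in LALA.

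HIST1H4H and HIST1H2AE were also highest in LALA nuclear RNA. HIST1H4H was at 2.12 FPKM in LALA and 0.464 in siPAP nuclear RNA, against 0.334 in control nuclear RNA, and at 0.955 FPKM in siPAP total and 0.594 in control total RNA. HIST1H2AE was at 2.10 FPKM in LALA and 0.352 in siPAP nuclear RNA, against 0.601 in control nuclear RNA. The locus HIST1H2BO,OR2B6, which joins an H2B gene to an olfactory receptor gene over 68815 bases, was at 10.2 FPKM in LALA and 6.31 in siPAP nuclear RNA, against 3.51 in control nuclear RNA. HIST1H2AM,HIST1H3J was at 5.47 FPKM in LALA and 2.71 in siPAP nuclear RNA, against 1.5 in control nuclear RNA. HIST1H4K and the most abundant of the loci named HIST1H3D were close to 1 FPKM in LALA (1.01 and 1.06) and at 0.818 and 0.975 in siPAP nuclear RNA, against 0.231 and 0.279 in control nuclear RNA. HIST4H4 was at 1.20 FPKM in LALA and 0.649 in siPAP nuclear RNA, against 0.406 in control nuclear RNA.

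HIST1H2AK was the locus past the 2-fold threshold in each of the 3 comparisons with a treatment, at 1.90 FPKM in LALA nuclear RNA against 0.574 in control nuclear RNA, a ratio of 3.31. It was below 1 FPKM in both controls, so it was measured through the treated group alone each time, and the nuclear comparisons share their control. With a pseudocount of 1 FPKM its log2 ratio was 1.08 for siPAP total RNA but 0.93, under the threshold, for siPAP nuclear RNA. How many of all loci pass in all 3 was not counted. HIST2H2BC was at 4.37 FPKM in LALA nuclear RNA, 1.81-fold above control nuclear RNA. HIST1H4D, the only locus at least 2-fold lower in LALA, was at 0.292 FPKM in LALA and 1.20 in control nuclear RNA. HIST2H3D was at 1.51 FPKM in LALA nuclear RNA and was listed at 0 in control nuclear RNA, so no ratio is given. HIST1H4I was at 1.06 FPKM in siPAP nuclear RNA and 0.881 in siPAP total RNA, and was listed at 0 in the other groups. HIST1H4B was at 1.23 FPKM in siPAP nuclear RNA and listed at 0 in LALA nuclear RNA, against 0.694 in control nuclear RNA.

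**Figure D3:**
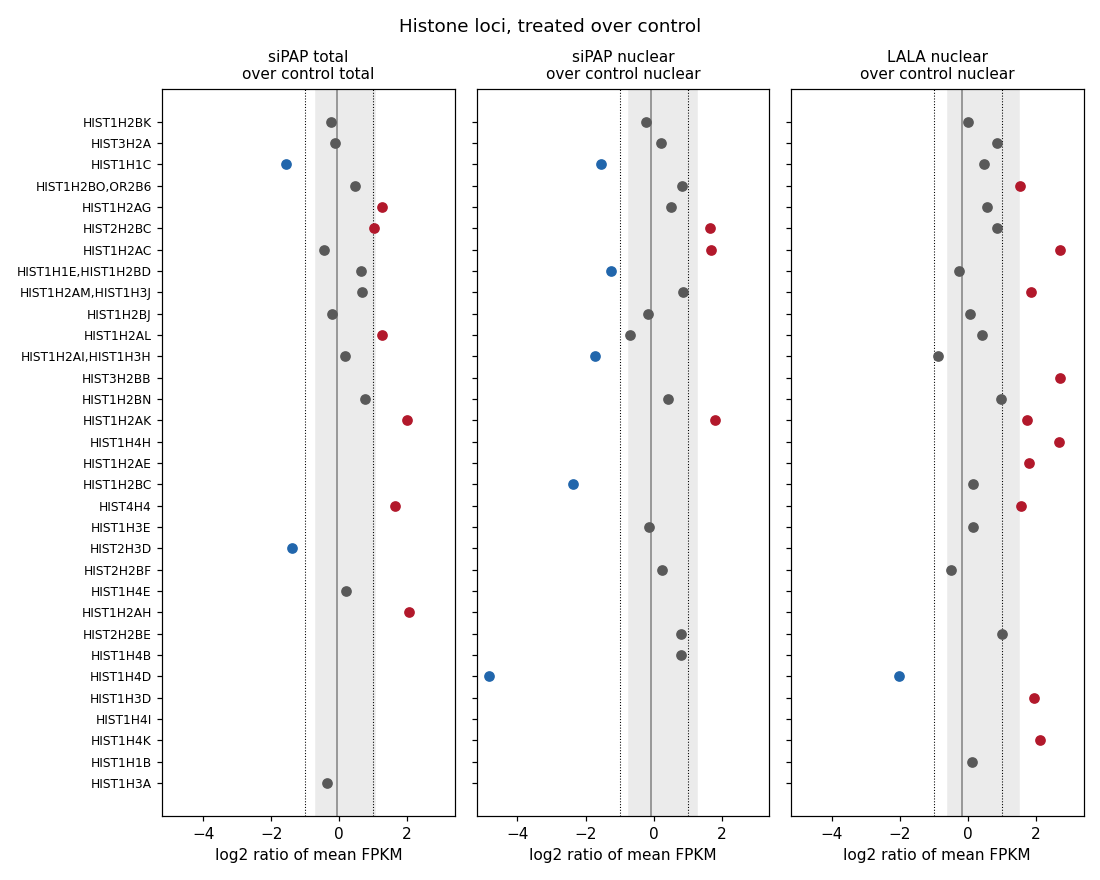
Log2 ratio of mean FPKM, treated over control, for the 32 histone loci in 3 comparisons, with red points at least 2-fold higher, blue points at least 2-fold lower, the grey band spanning the 5th to 95th percentile of all measured loci and the grey line their median. There are 6 red and 2 blue points for siPAP total, 3 and 5 for siPAP nuclear and 10 and 1 for LALA nuclear RNA, and a missing point was not measured.

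Set directly against siPAP in the nuclear fraction, LALA was at least 2-fold higher at 9 of 26 histone loci (34.6%), beside 2.82% of all 13967 measured loci, and at least 2-fold lower at 0, beside 1.25%. Of the 9, 5 were below 1 FPKM in siPAP nuclear RNA and were measured through LALA alone. The median log2 ratio was 0.66 for the histone loci and -0.06 for all loci. HIST3H2BB had the largest ratio, 8.22-fold, followed by HIST1H2AE at 5.96-fold and HIST1H2BC at 5.77-fold. These loci were all among those 5, at 0.392, 0.352 and 0.332 FPKM in siPAP nuclear RNA, so the sizes rest on low values. HIST1H2BC was at 1.92 FPKM in LALA nuclear RNA and 1.72 in control nuclear RNA, a ratio of 1.12. HIST2H2BC went the other way, with 4.37 FPKM in LALA and 7.66 in siPAP nuclear RNA. These groups differ in cell line as well as in treatment.

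The fractions of the control cells give a measure of how far the same loci differ without PAP depletion or LALA. Between control nuclear and control total RNA, 5 of 18 measured histone loci (27.8%) were at least 2-fold higher in the nuclear fraction, beside 1.19% of all 13001 measured loci, and 3 (16.7%) were at least 2-fold lower, beside 0.515%. Of the 5, 2 were below 1 FPKM in control total RNA, and of the 3, 1 was below it in control nuclear RNA, so these were measured through 1 group alone. The others were among 13 histone loci with at least 1 FPKM in both groups, where 0.782% of all loci were higher and 0.327% lower. Among loci between 1 and 5 FPKM, 4 of 14 histone loci (28.6%) were higher, beside 2.40% of all loci. The higher loci included HIST1H1E,HIST1H2BD, at 5.57 FPKM in control nuclear and 1.74 in control total RNA, and HIST1H2AI,HIST1H3H, at 3.46 FPKM in control nuclear and 1.18 in control total RNA. HIST1H2AC was at 1.18 FPKM in control nuclear RNA and 3.97 in control total RNA, 3.36-fold lower. HIST1H2AM,HIST1H3J was 2.01-fold lower in control nuclear RNA, with 3.02 FPKM in control total RNA. The control nuclear values of these loci are also the reference for their siPAP and LALA nuclear ratios. Between siPAP nuclear and siPAP total RNA, 1 of 22 histone loci (4.55%) was at least 2-fold higher, beside 1.02% of all 13424 measured loci, and 3 (13.6%) were at least 2-fold lower, beside 0.372%. All of these were below 1 FPKM in the lower group and were measured through 1 group alone. Of 14 histone loci with at least 1 FPKM in both groups, 0 were higher and 0 lower, beside 0.614% and 0.171% of all loci. At HIST1H2AC siPAP nuclear RNA was 1.30-fold above siPAP total RNA, while HIST1H4E was lower in the nuclear fraction in both (3.10-fold in siPAP and 3.08-fold in control). Whether the fractions differ less in siPAP cells was not tested. The shares of histone loci past 2-fold in the treated comparisons can be read beside both fraction pairs. These were 27.8% and 16.7% between the control fractions and 4.55% and 13.6% between the siPAP fractions. Nuclear and total RNA are different fractions, so neither pair measures the spread between like libraries. Without single libraries the part of the libraries' own spread was not tested.

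A textbook list of 6 histone genes known to give a polyadenylated mRNA beside the stem-loop form (HIST1H1C, HIST1H2AC, HIST1H2BD, HIST1H2BK, HIST2H2BE and HIST4H4) did not move in a single direction. In total RNA, 1 of its 5 measured loci was higher in siPAP (HIST4H4), beside 5.41% of all loci, and 1 lower (HIST1H1C), beside 1.55%. In siPAP nuclear RNA 1 of 5 was higher (HIST1H2AC), beside 6.82%, and 2 were lower (HIST1H1C and HIST1H1E,HIST1H2BD), beside 2.02%. In LALA nuclear RNA 2 of 6 were higher (HIST1H2AC and HIST4H4), beside 7.73%, and 0 lower, beside 0.627%. HIST2H2BE was at 1.10 FPKM in siPAP and 1.25 in LALA nuclear RNA, against 0.629 in control nuclear RNA, just under the threshold in LALA with a ratio of 1.99.

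The factors that make and process histone mRNA were more abundant than most histone loci. All 26 genes of a list of histone transcription and 3′ end processing factors were measured, and 0 passed 2-fold in any of the 3 comparisons with a treatment. Each reached 5 FPKM in some group, where few loci pass 2-fold. With PAP depletion 1.97% of all loci from 5 FPKM were higher in total RNA and 3.03% in the nuclear fraction, while 0.817% and 1.00% were lower. With LALA 2.31% were higher and 0.443% lower, so a count of 0 is near the background. SLBP, which binds the stem-loop, was at 109 FPKM in siPAP total and 118 in control total RNA, and at 96.9 in siPAP and 80.4 in LALA nuclear RNA, against 102 in control nuclear RNA. NPAT, the coactivator that switches on histone transcription, lay between 17.7 FPKM in LALA nuclear RNA and 20.1 in control nuclear RNA. The nearest to the threshold was MIF4GD, which partners SLBP in translation, at 2.71 FPKM in siPAP total RNA and 5.26 in control total RNA (log2 -0.96). The median log2 ratio of the list was -0.04 in total and -0.05 in nuclear RNA of siPAP cells, and -0.22 for LALA.

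Histone genes are normally expressed with the genes of DNA replication in S phase. Of 26 such genes, all measured and all above 5 FPKM, 0 passed 2-fold in the comparisons with a treatment, again near the background of 0.443% to 3.03% given for loci at that level. Their median log2 ratio was -0.0038 in total and 0.05 in nuclear RNA of siPAP cells. For LALA it was -0.38, and every gene of the list had a negative value, between -0.68 and -0.03. PCNA, the sliding clamp of the replication fork, was at 231 FPKM in siPAP and 160 in LALA nuclear RNA, against 226 in control nuclear RNA. LIG1, the replicative DNA ligase, had the most negative value, with 23.4 FPKM in LALA nuclear RNA and 37.4 in control nuclear RNA. In LALA nuclear RNA the histone loci and the S phase genes thus had medians of opposite sign (0.85 and -0.38, against -0.16 for all loci). The sizes are not alike in kind. The histone median includes loci measured through LALA alone, whose ratio had to be positive, and no S phase gene entered that way. For the 8 histone loci with at least 5 FPKM in either group the median was 0.70. The number of cells in S phase was not measured.

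The replication-independent histone genes, most of which end in a poly(A) tail and are expressed throughout the cell cycle, reached higher levels in these libraries, though not in every case. H2AFZ was at 549 FPKM in siPAP total and 627 in control total RNA, and H3F3A at 373 FPKM in siPAP total and 440 in control total RNA. CENPA lay between 25.2 and 37.8 FPKM and H1FX between 28.2 and 38.1, below HIST1H2BK, H2AFJ reached 2.06 at most, and H3F3C, H1FOO and H2AFB1 were listed at 0 in every group. Of the 14 genes listed, 11 were measured and 0 passed 2-fold in the 3 comparisons with a treatment, near the same background. Their median log2 ratio was -0.19 in both siPAP fractions and -0.30 for LALA. The linker histone H1F0 was at 43.9 FPKM in siPAP and 53.6 in LALA nuclear RNA, against 37.6 in control nuclear RNA.

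**Figure D4:**
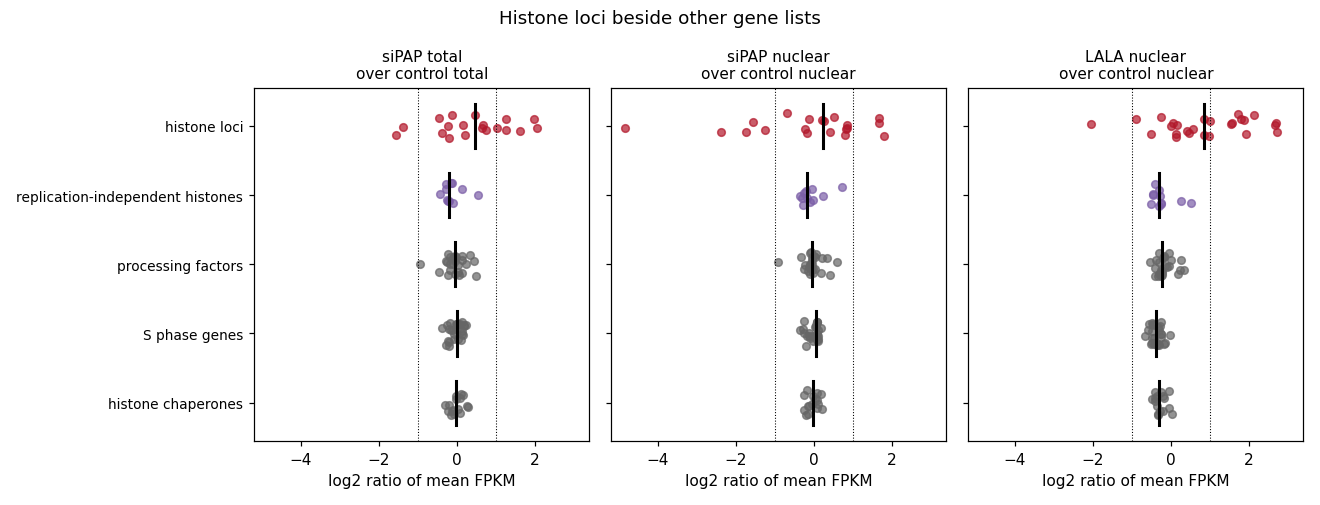
Log2 ratio of mean FPKM, treated over control, for the measured histone loci and 4 other lists, with 1 point per locus (shifted at random up or down for sight), black bars at the medians and dotted lines at 2-fold. The histone loci spread on either side of the dotted lines, with medians of 0.47, 0.24 and 0.85, while all points of the other 4 lists lie between them.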

How the data were processed

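RNA was sequenced by the authors from 10 libraries of cells labelled HEK293 in 5 groups with a stranded mRNA kit. Mapping was by TopHat2, assembly by Cufflinks on hg19 and comparison by Cuffdiff. The deposited FPKM values are Cuffdiff means over the 2 libraries of each group, so no SD or depth was available and no test could be computed from them. The columns of the authors' comparisons (log2 ratio, test statistic, p, q and call) were not used. Ratios were computed from the means without a pseudocount (Python 3.11.15, pandas 2.3.3, numpy 2.4.6). A locus counted as measured if 1 of the compared groups reached 1 FPKM and neither was at 0, and as changed from 2-fold. Every histone locus that reached 1 FPKM was eligible to be named. The calculation was tested on simulated data. Gene positions come from GENCODE on GRCh37 and hairpins from its sequence (pysam 0.24.0). Locus starts in the table are counted from 0 and were raised by 1. The members and lists were chosen with earlier results of these data known. Other pseudocounts, filters, thresholds and a centring were tried.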

Additional observations from a re-analysis of the deposited data

How the results depend on the processing

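Only group means were given, so no library could be left out, and differences between loci at low level are the least certain. No paired analysis was possible because the table holds only the mean of the 2 libraries of each group. Counts of loci at least 2-fold higher or lower depended on the treatment of low values. With a pseudocount of 1 FPKM, 2 of 19 histone loci were higher and 1 lower in siPAP total over control, beside 265 and 65 of all 13318 loci. In LALA nuclear over control, 5 of 26 were higher and 0 lower, beside 435 and 33 of 13880. In LALA over siPAP nuclear, 5 of 26 were higher, beside 102 of 13967. In control nuclear over total, 2 of 18 were higher and 1 lower, beside 70 and 32 of 13001. In siPAP nuclear over total, 0 of 22 were higher and 0 lower, beside 63 and 13 of 13424. With no filter on low values, 13 of 42 were higher and 7 lower in siPAP total, beside 3044 and 1156 of all 22385 loci. In siPAP nuclear 8 of 38 were higher, beside 3251 of 22535, and in LALA nuclear 18 of 38, beside 4346 of 22819. In control nuclear over total 8 of 36 were higher and 5 lower, beside 1242 and 839 of 22377. In siPAP nuclear over total 6 of 44 were higher, beside 1113 of 22593. With at least 5 FPKM, 2 of 5 were higher and 1 lower in siPAP total (median log2 ratio -0.12), beside 193 and 80 of all 9786 loci. In siPAP nuclear 1 of 7 was higher and 2 lower, beside 303 and 100 of 9999. In LALA nuclear 3 of 8 were higher and 0 lower, beside 230 and 44 of 9938. In control nuclear over total 1 of 4 was higher and 0 lower, beside 77 and 31 of 9752. In siPAP nuclear over total 0 of 6 were higher and 0 lower, beside 68 and 10 of 9739. In LALA over siPAP nuclear 3 of 8 were higher, beside 70 of 9886. With loci of 1 symbol only, 3 of 16 were lower in siPAP nuclear, beside 269 of 13097, and 3 of 14 higher in control nuclear over total, beside 151 of 12473. From 1.5-fold, 7 of 20 were higher in siPAP nuclear, beside 1539 of 13636, and 2 of 26 lower in LALA nuclear, beside 698 of 13880. In siPAP nuclear over total 3 of 22 were higher and 5 lower, beside 653 and 188 of 13424. In LALA over siPAP nuclear 14 of 26 were higher and 2 lower, beside 1040 and 737 of 13967. A pseudocount of 0.1 FPKM, centring, and the restriction to loci that Cuffdiff marked as having enough fragments, which was chosen after seeing the data, left every count within 1.5 times of its value and every median within a 1.5-fold shift. The cause of these shifts was not tested.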

Other observations

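The chaperones that carry histones to chromatin were also looked at. All 16 genes of the list were measured, and 0 passed 2-fold in the comparisons with a treatment, where 0.443% to 3.03% of all loci from 5 FPKM passed it in a direction, so the count is near the background. Their median log2 ratio was -0.02 in total and -0.03 in nuclear RNA of siPAP cells, and -0.30 for LALA. ASF1B, which hands H3 and H4 to the replication fork, was at 51.5 FPKM in siPAP and 35.1 in LALA nuclear RNA, against 49.0 in control nuclear RNA. CHAF1A, a subunit of the assembly factor that deposits H3 and H4 on new DNA, was at 67.1 FPKM in siPAP and 57.7 in LALA nuclear RNA, against 59.2 in control nuclear RNA. NASP, a chaperone of H1 and of H3 and H4, was at 259 FPKM in siPAP and 231 in LALA nuclear RNA, against 309 in control nuclear RNA.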
